A study of Mus musculus with 2 samples.

Results

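Pericyte and smooth muscle markers were followed in PDGFRα+ cells sorted from the inguinal fat pad of mice with and without the Sox9 PreASKO genotype. The 10 genes form a list of marker genes, chosen with earlier results of these data known. Each was read from the probe sets that the platform annotation assigns to that gene alone. All 10 had a value, out of 19938 genes measured this way, and each had 1 probe set. They comprised 5 pericyte genes (Kcnj8, Abcc9, Rgs5, Cspg4 and Mcam) and 5 contractile or filament genes (Des, Acta2, Tagln, Myh11 and Cnn1). The cells were the PDGFRα+ part of the stromal vascular fraction, the non-adipocyte cells that collagenase frees from fat. One group was Sox9 PreASKO and the other Sox9 floxed. Both were female mice aged 6 weeks given doxycycline at postnatal day 1, and each group was a single array of RNA pooled from 3 animals. The labels do not spell out PreASKO, and the promoter that drives recombination and the strain are not given in the sources used here. With 1 array per group no difference below has an error, a p-value or a replicate check.

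Mural cells wrap the endothelium of blood vessels. Pericytes sit on capillaries, whereas smooth muscle cells surround arterioles, arteries and veins and contract through smooth muscle actin and myosin. PDGFRβ is the receptor by which mural cells are recruited to vessels. PDGFRα, the sorting marker here, is instead a marker of fibroblasts and adipocyte precursors. In bulk RNA fewer cells of a type and less RNA per cell cannot be told apart.

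Values are the authors' log2 expression values, and every difference is PreASKO minus floxed on that scale. A difference of 0.58 in either direction is 1.5-fold, the limit that the series names for its own gene list. Background was marked by the values of 1021 olfactory receptor genes, assumed to be off in fat. Their 95th percentile was 4.48 in PreASKO cells and 4.64 in floxed cells, and the higher value, 4.64, was the mark used for both arrays. Their 99th percentile was 5.33 in PreASKO cells and 5.43 in floxed cells, and 5.43 served as a stricter mark. Sox9 itself was at 4.97 in PreASKO cells and 5.25 in floxed cells, above the first mark and below the second, and its difference of -0.27 did not reach 1.5-fold. Whether its probe set covers the exons removed was not examined. Pdgfra was at 9.55 in PreASKO cells and 9.86 in floxed cells.

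As a group the markers leaned lower in PreASKO cells: 7 of the 10 were lower and 3 higher, with a median difference of -0.32. Over all genes 48.0% were lower and the median difference was 0. The olfactory receptor genes also leaned lower, with 591 lower and 344 higher, or 57.9% lower, and a median of -0.08. Of the members, 7 were above background on both arrays, and 6 of these were lower. Kcnj8 was the only member at least 1.5-fold lower, where 1.98% of all genes were. Cnn1 was the only member at least 1.5-fold higher, where 1.66% of all genes were, and it was below background on both arrays. One call in each direction among 10 genes is too few to set against those percentages. The pericyte genes had a median of -0.33, with 4 of 5 lower, and the contractile genes a median of -0.13, with 3 of 5 lower. All 5 pericyte genes exceeded background on both arrays, against 2 of the 5 contractile genes, Acta2 and Tagln. With values below background raised to it, the contractile median became 0. The pericyte median stayed at -0.33, which was fixed in advance because no pericyte value lay below background. That median is the difference of Cspg4, whose PreASKO value of 4.66 barely exceeded the mark. With values raised to the stricter mark, a setting added after seeing the data, the pericyte median, the contractile median and that of all 10 members were 0.

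**Figure D1:**
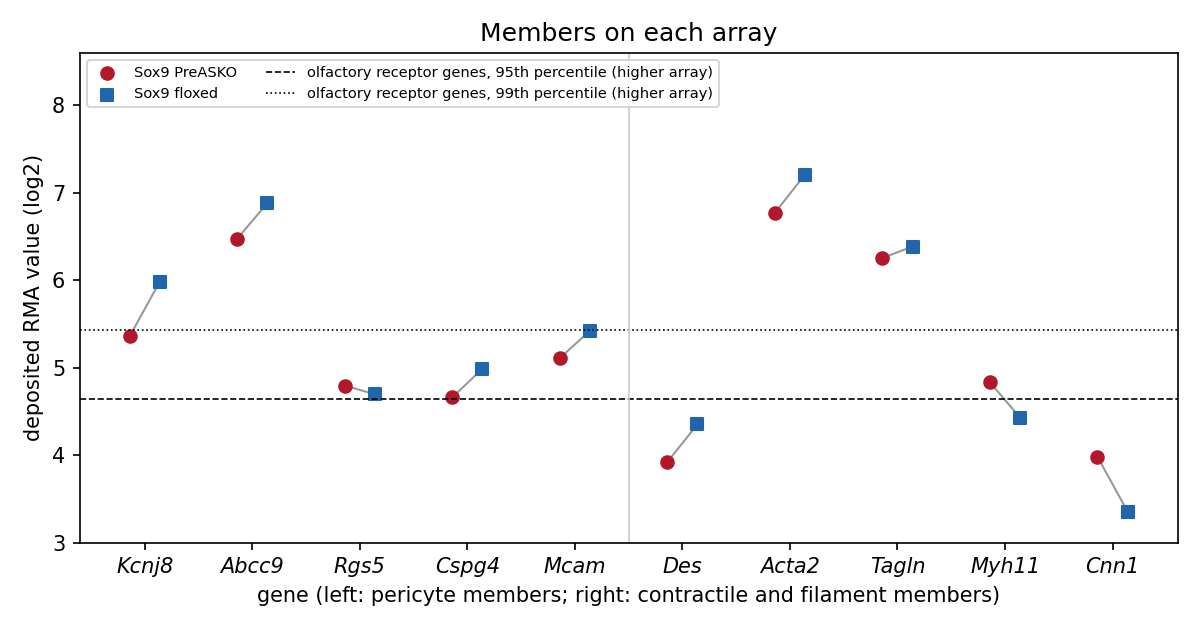
Deposited log2 value (vertical axis) of each of the 10 genes on the Sox9 PreASKO array (circles) and the Sox9 floxed array (squares), with the pericyte genes left of the grey line and the contractile and filament genes right of it. Dashed and dotted lines mark the background levels of 4.64 and 5.43, the higher of both arrays' 95th and 99th percentiles of olfactory receptor genes; Abcc9, Acta2 and Tagln exceed both on both arrays, while Des and Cnn1 lie below both on both arrays. There is 1 array per group and no error bar.

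The promoters of 4 members are given for contrasting members: Kcnj8 and its channel partner Abcc9, both lower, and the contractile genes Acta2 and Cnn1, with differences of opposite sign, that of Cnn1 lying below background. The letters are the 250 bases before the start site, 5′ to 3′ on the gene's strand, from RefSeq on GRCm38.p6. Capitals mark 2 kinds of match sought on both strands: CArG-like sites, the site type bound by serum response factor with 1 core letter allowed to be C or G, and the SOX core letters ACAATG or ACAAAG.
Kcnj8 (chr6:142571615-142571864, minus strand): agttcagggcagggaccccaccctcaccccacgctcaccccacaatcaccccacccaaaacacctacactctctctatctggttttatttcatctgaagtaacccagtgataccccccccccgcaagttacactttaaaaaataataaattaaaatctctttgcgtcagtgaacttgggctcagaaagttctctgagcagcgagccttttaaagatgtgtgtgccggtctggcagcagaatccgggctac
Abcc9 (chr6:142702275-142702524, minus strand): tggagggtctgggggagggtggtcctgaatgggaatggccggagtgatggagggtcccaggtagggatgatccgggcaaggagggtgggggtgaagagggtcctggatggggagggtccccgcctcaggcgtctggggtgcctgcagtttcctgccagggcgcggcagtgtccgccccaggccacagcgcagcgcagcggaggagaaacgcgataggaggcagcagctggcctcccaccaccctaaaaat
Acta2 (chr19:34255374-34255623, minus strand): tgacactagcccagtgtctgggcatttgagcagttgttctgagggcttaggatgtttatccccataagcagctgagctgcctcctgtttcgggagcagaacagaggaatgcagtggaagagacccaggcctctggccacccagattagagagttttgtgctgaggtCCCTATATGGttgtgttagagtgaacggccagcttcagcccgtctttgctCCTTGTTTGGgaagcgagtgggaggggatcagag
Cnn1 (chr9:22099003-22099252, plus strand): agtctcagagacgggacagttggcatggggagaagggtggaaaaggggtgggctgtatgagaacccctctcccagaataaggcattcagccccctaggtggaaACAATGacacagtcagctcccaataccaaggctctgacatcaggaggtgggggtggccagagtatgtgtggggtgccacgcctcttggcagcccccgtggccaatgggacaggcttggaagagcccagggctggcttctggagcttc
Acta2 held CArG-like sites, CCCTATATGG beginning 84 bases and CCTTGTTTGG beginning 34 bases before the start. Cnn1 held the SOX core ACAATG beginning 147 bases before the start. Neither kind of match was in the windows of Kcnj8 and Abcc9. Of 32851 promoter windows of this length in the table, which holds several for some genes, 8.59% held a CArG-like site, 1.47% an exact CArG box and 25.2% a SOX core. Windows were at hand for 8 members, all but Tagln and Myh11. Acta2 was the only one with a CArG-like site and Cnn1 the only one with a SOX core, and none held an exact CArG box. These are matches of letters, not measured binding.

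The ATP-sensitive potassium channel of mural cells is built from a pore subunit, encoded by Kcnj8 (Kir6.1), and a sulfonylurea receptor, encoded by Abcc9 (SUR2). When open it hyperpolarises the cell and relaxes the vessel. Kcnj8 was at 5.36 in PreASKO cells and 5.98 in floxed cells, a difference of -0.62, or 1.54-fold lower. The value cleared the 1.5-fold limit narrowly, and the PreASKO level lay above the first background mark and under the stricter one, though above the 99th percentile of its own array (5.33). Raised to that stricter mark, the PreASKO value gave a difference of -0.55, short of the limit. Abcc9 was at 6.48 in PreASKO cells and 6.88 in floxed cells, a difference of -0.41, or 1.33-fold lower. Both Abcc9 values exceeded the stricter mark. The subunit genes thus stood lower together, and they are direct neighbours on chromosome 6, with no other gene between them in the RefSeq table of GRCm38.p6. The corresponding subunits of the channel of pancreatic beta cells were named after their values were seen. Kcnj11 was at 4.01 in PreASKO cells and 3.52 in floxed cells, and Abcc8 at 3.65 in PreASKO cells and 3.73 in floxed cells, all below background.

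The remaining pericyte members differed less. Cspg4, the proteoglycan NG2 of the pericyte surface, was at 4.66 in PreASKO cells and 4.99 in floxed cells, a difference of -0.33. Mcam, the adhesion molecule CD146 of pericytes and endothelium, was at 5.11 in PreASKO cells and 5.42 in floxed cells, a difference of -0.31. These differences were alike in size, 1.26-fold and 1.24-fold lower, and all 4 values lay between the background marks. The PreASKO value of Cspg4 was barely above the lower mark of 4.64. Rgs5, a regulator of G protein signalling that is among the most used pericyte markers, was at 4.80 in PreASKO cells and 4.70 in floxed cells, a difference of 0.10. Both Rgs5 values were barely above background.

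The contractile members differed in both directions. Acta2, smooth muscle actin, was at 6.77 in PreASKO cells and 7.21 in floxed cells, a difference of -0.44, or 1.35-fold lower. Tagln, the actin-binding protein transgelin, was at 6.26 in PreASKO cells and 6.39 in floxed cells, a difference of -0.13. Acta2 and Tagln exceeded the stricter background mark on both arrays, and myofibroblasts and other activated fibroblasts also express them. Myh11, the smooth muscle myosin heavy chain and a marker of mature smooth muscle, was at 4.83 in PreASKO cells and 4.43 in floxed cells, a difference of 0.40. The floxed value was below background, and with it raised to the first mark the PreASKO value was 1.14-fold higher. With values raised to the stricter mark no difference remained. Des, the intermediate filament desmin, was at 3.92 in PreASKO cells and 4.35 in floxed cells, a difference of -0.43 with both values below background. Cnn1, the actin-associated protein calponin of differentiated smooth muscle, was at 3.98 in PreASKO cells and 3.35 in floxed cells, a difference of 0.63 with both values below background. No fold is given for Des and Cnn1 for that reason. Desmin, smooth muscle myosin and calponin were thus at or near background on both arrays, while Acta2 and Tagln were measured well above it.

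Dim genes vary more between these arrays, so each member was set beside all genes within 0.5 of its own mean level, between 2693 and 4435 genes. The middle 90% of their differences ran from -0.41 to 0.45 around the level of Kcnj8, from -0.33 to 0.40 around Abcc9 and from -0.32 to 0.39 around Acta2. Kcnj8, Abcc9 and Acta2 lay below these ranges. Genes as low as the member or lower made up 0.99% around Kcnj8, 2.82% around Abcc9 and 1.75% around Acta2. Around Cnn1 the range ran from -0.50 to 0.43 and Cnn1 lay above it. The other 6 members, Rgs5, Cspg4, Mcam, Des, Tagln and Myh11, lay within their ranges. Some listed genes that are not members also lay outside such ranges, taken at the nearest level examined. The pericyte gene Ednrb (0.56) lay above the upper end of 0.34 at level 7.75. Tpm1 (-0.40) lay below the lower end of -0.27 at level 8.5. Pdgfrl (-0.71) lay below -0.29 at level 7.5 and Pdgfra (-0.31) below -0.25 at level 9.75. Lying outside was thus not particular to the members, and how many listed genes did so was not counted. Among the olfactory receptor genes themselves 5.88% were at least 1.5-fold lower in PreASKO and 1.08% at least 1.5-fold higher. This describes the spread over genes on 1 pair of arrays and is no measure of replicate error. Because the members were chosen with earlier results of these data known, the shares are no test of them.

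**Figure D2:**
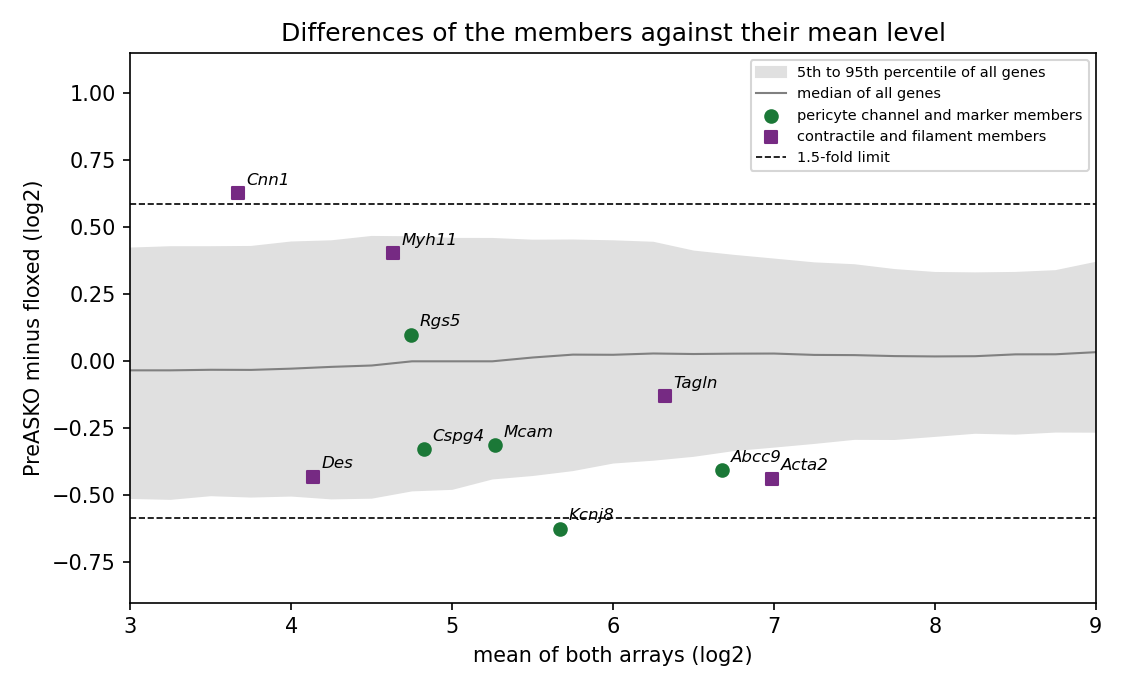
Difference PreASKO minus floxed (vertical axis, log2) against the mean of both arrays (horizontal axis, log2) for the 5 pericyte genes (circles) and the 5 contractile and filament genes (squares). The grey band holds the 5th to 95th percentile of all genes within 0.5 of that level, the grey line is their median, and dashed lines mark 1.5-fold; Kcnj8, Abcc9 and Acta2 lie below the band and Cnn1 above it.

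Other pericyte genes were evenly split. Of 22 further pericyte genes 20 had a value, with 10 lower and 10 higher in PreASKO cells. The median was -0.02 and none was at least 1.5-fold different. Of the 20 genes, 14 were above background on both arrays and 5 below it on both. With values below background raised to it, 8 were lower and 7 higher, with a median of 0. Ednrb, an endothelin receptor, was at 8.15 in PreASKO cells and 7.59 in floxed cells, a difference of 0.56 that fell just short of the limit. Notch3, the Notch receptor of mural cells, was at 5.77 in PreASKO cells and 5.31 in floxed cells, a difference of 0.46. The metalloreductase gene Steap4 differed by -0.25 and the mitochondrial protein gene Ndufa4l2 by 0.24. Pdgfrb, named after its values were seen, was at 8.48 in PreASKO cells and 8.66 in floxed cells, a difference of -0.18.

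Smooth muscle contractile genes beyond the members were split less evenly. Of 25 listed, 24 had a value, 14 were lower and 10 higher, the median was -0.03 and none was at least 1.5-fold different. Tpm1, a tropomyosin, was at 8.27 in PreASKO cells and 8.67 in floxed cells, a difference of -0.40. The integrin gene Itga8 differed by -0.37 and Mylk, the kinase of myosin light chain, by -0.29. In the other direction Pdlim7, a PDZ and LIM domain protein of the actin cytoskeleton, was at 7.52 in PreASKO cells and 7.14 in floxed cells, a difference of 0.38. With values below background raised to it, 10 of these genes were lower and 4 higher, and the others lay below background on both arrays. Over all genes 5351 were then lower and 6252 higher.

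Transcription factors of smooth muscle were mostly higher in PreASKO cells, by small differences. All 10 listed had a value, with 8 higher, 1 lower and 1 equal, a median of 0.16 and none at least 1.5-fold different. Tbx2 differed by 0.32, the myocardin-related coactivator gene Mrtfb by 0.28, Mef2c by 0.23 and the coactivator gene Mrtfa by 0.21. Srf, which encodes serum response factor, was at 6.59 in PreASKO cells and 6.58 in floxed cells, a difference of 0.01. Myocd, the myocardin gene that drives the smooth muscle programme with serum response factor, was at 2.92 in PreASKO cells and 3.05 in floxed cells, below background. Srf and Myocd were named after their values were seen. The 8 factors above background on both arrays were the 8 higher ones. Of the 11015 genes above background on both arrays, 44.8% were lower and the median was 0.02.

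Of 13 genes listed as non-muscle or paralogous counterparts of the members, 12 had a value, 5 lower and 7 higher in PreASKO cells. Their median difference was 0.02. Tagln2, a transgelin of many cell types, was at 10.1 in PreASKO cells and 9.77 in floxed cells, a difference of 0.30 where Tagln differed by -0.13. Cnn3, a calponin outside smooth muscle, differed by 0.18 and Myh10, a non-muscle myosin heavy chain, by -0.24. Acta1, the actin of skeletal muscle, differed by 0.17 where Acta2 differed by -0.44. Close copies among the actins can share probe signal.

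**Figure D3:**
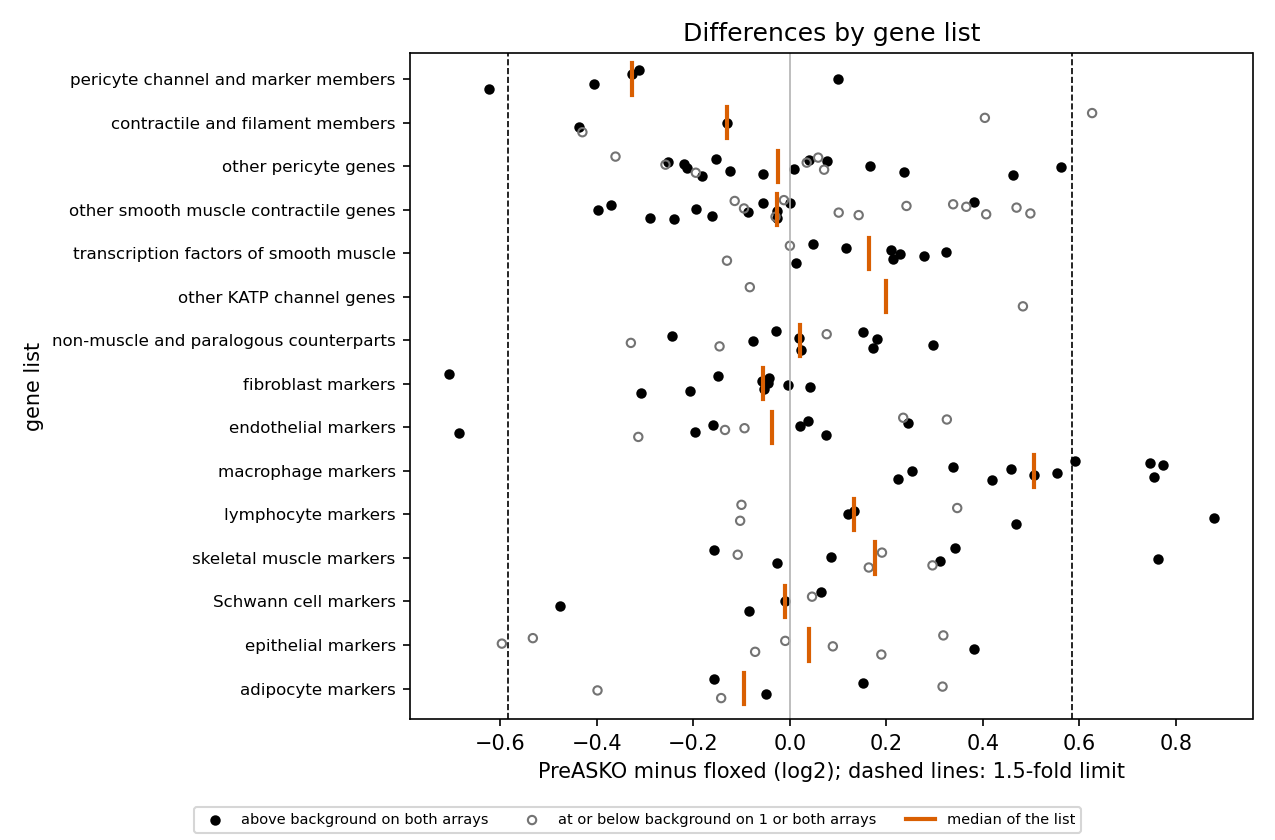
Difference PreASKO minus floxed (horizontal axis, log2) of every measured gene of the member, wider mural and other cell type lists (rows), with the median of each list as an orange bar and 1.5-fold as dashed lines. Filled points are above background on both arrays and open points are not; the pericyte members have a median of -0.33, the transcription factors 0.16 and the macrophage markers 0.51.

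The sort was labelled PDGFRα+ and held fibroblast markers at high values, whose mean level was 10.4 in PreASKO cells and 10.6 in floxed cells, with all 10 measured markers above background. Their median difference was -0.06, with 9 of 10 lower, and Pdgfrl, at 7.25 in PreASKO cells and 7.96 in floxed cells, was the only one at least 1.5-fold lower. Pdgfra differed by -0.31 and Col1a1 by -0.21. Macrophage markers differed in the direction opposite to most members. All 11 were higher in PreASKO cells and 4 reached 1.5-fold. Their median was 0.51 and their mean level was 9.70 in PreASKO cells and 9.19 in floxed cells. Tyrobp (0.77), C1qa (0.75) and Cd74 (0.75) differed most. The part of these immune transcripts in the lower values of the members was not tested. Which cells of the sort gave the values of the members was not tested either.

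Endothelial markers differed in both directions. Of 12 endothelial markers 6 were lower and 6 higher, with a median of -0.04 and a mean level of 5.09 in PreASKO cells and 5.15 in floxed cells. Kdr, a VEGF receptor, was at 4.86 in PreASKO cells and 5.55 in floxed cells, a difference of -0.69 and the only one at least 1.5-fold. Cldn5 differed by 0.25 and Tek by -0.20. Emcn and Tie1, named after their values were seen, were below background on both arrays. Des and Acta1 are also muscle genes, and the skeletal muscle list had a median of 0.18 over 10 markers, 7 higher and 3 lower, with Tnnt3 at 6.12 in PreASKO cells and 5.35 in floxed cells, Ckm differing by 0.31 and Tnnc2 by 0.09. The mean level of that list was 4.96 in PreASKO cells and 4.77 in floxed cells. Its part in the values of Des and Acta1 was not tested.

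Markers of the remaining cell types spanned both directions. The median difference was 0.13 over 7 genes listed as lymphocyte markers, 3 of them below background on both arrays. Cd3e was at 0.88, with a floxed value of 4.96 under the stricter mark. The other T cell genes differed less, Cd3g by 0.12, Cd8a by 0.13 and Cd3d by -0.10. Ptprc, which leukocytes in general express, was at 0.47. Over 5 Schwann cell markers the median was -0.01, with Sox10 at -0.48, Mbp at -0.08 and Ngfr at 0.06. Over 8 epithelial markers, 7 of them below background on both arrays, the median was 0.04, with Krt8 at 0.38. Over 6 adipocyte markers, 3 of them below background on both arrays, the median was -0.10. Lpl was at -0.16, Fabp4 at 0.15 and Plin1 at -0.05. With values below background raised to it, the adipocyte median was 0.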

How the data were processed

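RNA of sorted PDGFRα+ cells was measured on 2 arrays. The labels call the molecule polyA RNA, while the protocol in the labels names total RNA. The authors deposited 1 value per probe set on a log2 scale, made with RMA per the submitters' processing notes; its version, filters and genome build are not given in the sources used here. The base of the log is inferred from values between 1.23 and 13.8. RMA makes arrays' distributions alike and compresses differences of dim genes. Of 35556 probe sets 21789 named 1 gene; the brightest per gene was used, giving 19938 genes. No probe set of several genes named a member, and all 10 member gene IDs were found in RefSeq. Lists held 157 genes, 147 with a value, some found through newer symbols.

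For each gene the floxed value was subtracted from the PreASKO value. With 1 array per group no test was possible, and array number limits the precision. The members and lists were chosen with earlier results of these data known. Beside the members, each wider list's genes past 1.5-fold, or otherwise up to 4 with the widest differences above a level floor of 5.18 (the median, over genes, of each gene's higher value) were named, and up to 3 per list of cell type markers. Alternatives were a 2-fold limit, that level floor, values raised to either background mark (the 99th percentile was added after seeing the data), other probe set rules, median centring, loess (span 0.3) and quantile normalization. Median centring, loess and quantile normalization were tested on simulated data with known changes and the same noise at every level. The background marks, the ranges at similar level and the motif search were not tested in this way. Python 3.11.15, numpy 2.4.6, pandas 2.3.3, statsmodels 0.14.6 and matplotlib 3.10.9 were used.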

Additional observations from a re-analysis of the deposited data

How the results depend on the processing

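The directions of all 10 members were the same with loess and quantile normalization. Kcnj8 differed by -0.65 with loess and by -0.64 with quantile normalization. The mean or lowest probe set could change no member, since each has 1. Median centring could change none either, since the median difference over all genes was already 0. At the 2-fold limit 0 members were lower and 0 higher. Among members whose higher array reached 5.18, which were 5 and all lower, 1 was 1.5-fold lower and 0 higher, and the contractile median was -0.28. With values raised to the 4.64 background mark (95th percentile), Cnn1 differed by 0, so that 0 members were 1.5-fold higher, and the contractile median was 0, since Des and Cnn1 then held equal values. With the 99th percentile instead, a setting chosen after seeing the data, 0 members were 1.5-fold lower and 0 higher, Kcnj8 differed by -0.55, and the medians of the pericyte members, the contractile members and all 10 were 0, because 6 members then had equal values on both arrays. Over all genes the counts of 394 lower and 331 higher became 103 and 161 with values raised to the 95th percentile, 29 and 22 at 2-fold, 107 and 161 above the level floor, and 343 and 374 after quantile normalization. No paired analysis was possible because there is only 1 array in a group. Low signal over background limits Rgs5, Cspg4, Des, Myh11 and Cnn1 most, and a single array per group limits every value.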
